A study of Mus musculus with 2 samples.

Results

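The 10 miRNA genes described here are known for their links to fibroblasts, collagen and cartilage. They are Mir21a, Mir214, Mir199a-2, Mir199a-1, Mir199b, Mir140, Mir29a, Mir29b-1, Mir29b-2 and Mir29c. They were chosen by name from the 2202 miRNA genes that were counted, with earlier results of these data known. The small RNA was sequenced from the gastrocnemius, a calf muscle, of male B6CASTF1/J mice at 10 days of age. These mice are F1 hybrids with C57BL/6J and CAST/EiJ as the parental strains, and no treatment or further allele is named. The study holds 2 libraries of this 1 group, biological replicates 1 and 2, which carry different animal numbers in the labels but the same donor entry. No condition can be compared, so the levels are a description, and every test below compares the 2 libraries, by counting error alone unless stated.

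A miRNA is cut from a hairpin transcript as a short mature strand from the 5′ or the 3′ side (the 5p and 3p arms), and it finds its target transcripts mainly through the seed, bases 2 to 8. miR-21 is known to accumulate in activated fibroblasts and to promote fibrosis. miR-214 and miR-199a are made from the long non-coding RNA Dnm3os, which is known from mesenchymal tissue. miR-140 is made within Wwp2 and is best known from cartilage. The miR-29 family acts in the other direction, since its known targets include transcripts of fibrillar collagens and other matrix proteins. In whole muscle these genes are read from all cells together, so fewer cells of a type and less RNA per cell cannot be told apart.

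The sequences are shown first because they decide which of these genes a short read can be told from. All 10 hairpins were found in the RefSeq table (GRCm38.p6) and were identical there and in GENCODE M21. That table lists 18 arms for them, of which 14 differ in sequence. In the 3p arms of the Mir29 family, given 5′ to 3′ with the seed in capitals, the seed is the same in all members:
miR-29a-3p: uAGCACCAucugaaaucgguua
miR-29b-3p: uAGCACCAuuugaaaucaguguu
miR-29c-3p: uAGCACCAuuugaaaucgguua

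Counted from 1 at the 5′ end, miR-29a-3p and miR-29c-3p differ by 1 substitution, C10U. From miR-29c-3p to miR-29b-3p there are 3 differences over the 22 bases they have in common, G18A, U21G and A22U. miR-29b-3p is made from both Mir29b-1 and Mir29b-2, and its whole sequence stands in both hairpins. Only the other arm tells these copies apart, and it is shown for that reason:
miR-29b-1-5p: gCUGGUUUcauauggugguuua
miR-29b-2-5p: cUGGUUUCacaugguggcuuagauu

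The Mir199 genes overlap further. miR-199a-3p and miR-199b-3p have 0 differences over 22 bases, so the 3p arm is the same in 3 genes, and miR-199a-5p is the same in Mir199a-1 and Mir199a-2. The arms, with the seed in capitals, are:
miR-199a-5p: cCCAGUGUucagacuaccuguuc
miR-199a-3p: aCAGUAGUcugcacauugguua

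At the place of the 5p arm, bases 26 to 48 of its hairpin, Mir199b differs from miR-199a-5p by 1 substitution, C10U, which is capitalised here:
Mir199b 5p stretch: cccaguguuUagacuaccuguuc

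This stretch occurs in no other annotated miRNA gene, nor do its first 18 bases. The whole hairpins, with every base in capitals that lies in a stretch of at least 20 nt found in another miRNA gene, show how much of each locus is its own:
Mir199a-1: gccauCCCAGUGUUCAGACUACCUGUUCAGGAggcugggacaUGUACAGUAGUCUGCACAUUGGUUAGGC
Mir199a-2: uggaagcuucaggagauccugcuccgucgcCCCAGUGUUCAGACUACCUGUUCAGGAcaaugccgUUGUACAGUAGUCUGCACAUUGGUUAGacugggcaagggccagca
Mir199b: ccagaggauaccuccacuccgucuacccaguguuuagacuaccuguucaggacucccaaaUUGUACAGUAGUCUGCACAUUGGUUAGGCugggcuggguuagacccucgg

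Shared stretches took 55 of the 70 bases of Mir199a-1, 54 of the 110 of Mir199a-2 and 29 of the 110 of Mir199b. The remaining arms stand in 1 annotated miRNA gene each, and so do their first 18 bases. The table lists 1 arm for Mir140. The listed arms of the 3 most abundant genes of the set are:
miR-21a-5p: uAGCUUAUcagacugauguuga
miR-21a-3p: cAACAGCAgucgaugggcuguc
miR-214-5p: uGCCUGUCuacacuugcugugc
miR-214-3p: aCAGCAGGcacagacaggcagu
miR-140-3p: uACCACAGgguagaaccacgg

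**Figure D1:**
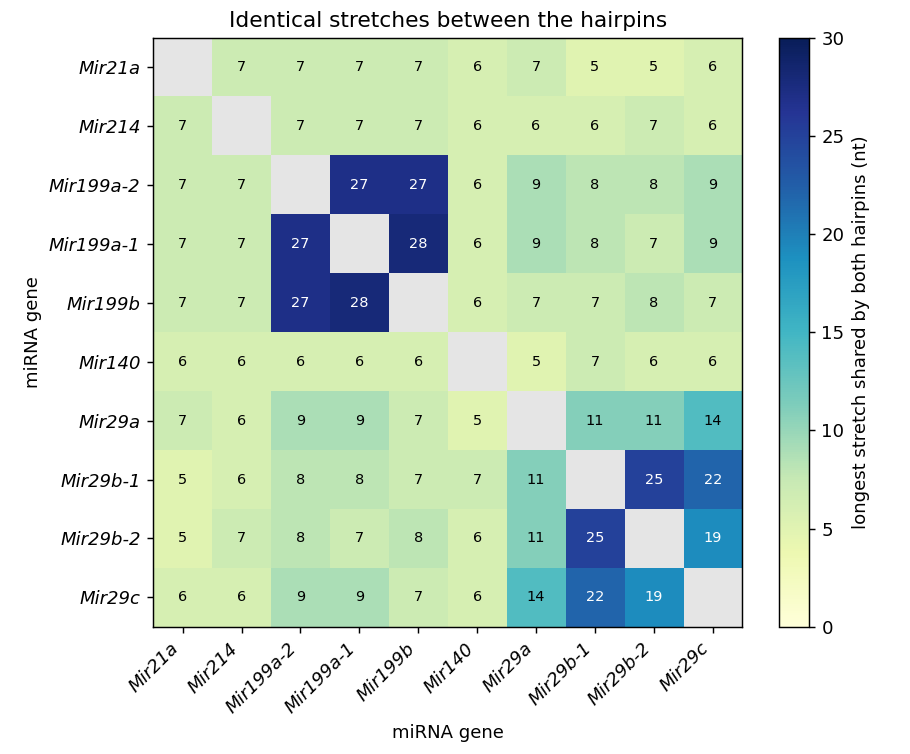
Longest identical stretch, in nt, between the hairpins of each pair of the 10 miRNA genes (both axes list the genes; darker is longer, and the diagonal is left out). The Mir199 genes share 27 or 28 nt with each other, Mir29b-1 and Mir29b-2 share 25 nt, Mir29c shares 22 nt with Mir29b-1 and 19 nt with Mir29b-2, and no pair that includes Mir21a, Mir214 or Mir140 exceeds 7 nt.

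By this search, 5 genes (Mir21a, Mir214, Mir140, Mir29a and Mir29c) have no listed arm that stands whole in another miRNA gene. The other 5 have at least 1 such arm, and in Mir199a-1, Mir199a-2 and Mir199b every listed arm does. This matters for the values, because the tables keep reads that match several genomic places apart and count them for no gene. Such reads numbered 4548703 in replicate 1 and 6186505 in replicate 2. How many of them came from the genes described here cannot be read from the tables, so the levels of Mir199a-1, Mir199a-2, Mir199b, Mir29b-1 and Mir29b-2 are those of the reads that could be placed. The tables count per hairpin gene and hold no read sequences, so the arms cannot be told apart.

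Replicate 1 held 3999172 reads assigned to miRNA genes and replicate 2 held 5062714. Levels are counts per 1000000 of these assigned reads (CPM), with the SD over the 2 libraries. The 7 listed skeletal muscle miRNA genes summed to 100937 and 87903 CPM in replicates 1 and 2, nearly all of it from Mir206 (100599 and 87446 CPM). Of these 7 genes, 5 were detected, and Mir1a-1 and both Mir133a genes stayed under 10 CPM. These values, too, hold only reads that could be placed. The arms of the muscle genes were not searched in other miRNA genes, so low values here do not show that a mature miRNA was scarce. Together the 10 genes held 20182 counts in replicate 1, which is 0.505% of the assigned reads (exact 95% interval 0.498 to 0.512). They held 23242 counts in replicate 2, which is 0.459% (0.453 to 0.465). The reads are not marked by molecular identifiers, so intervals cover counting error only. Of the 10 genes, 8 reached at least 10 counts in both libraries, the limit for calling a gene detected, and 313 miRNA genes did so in all. A level of 100 CPM in both libraries was reached by 4 of the 10 genes and by 169 genes in all.

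**Figure D2:**
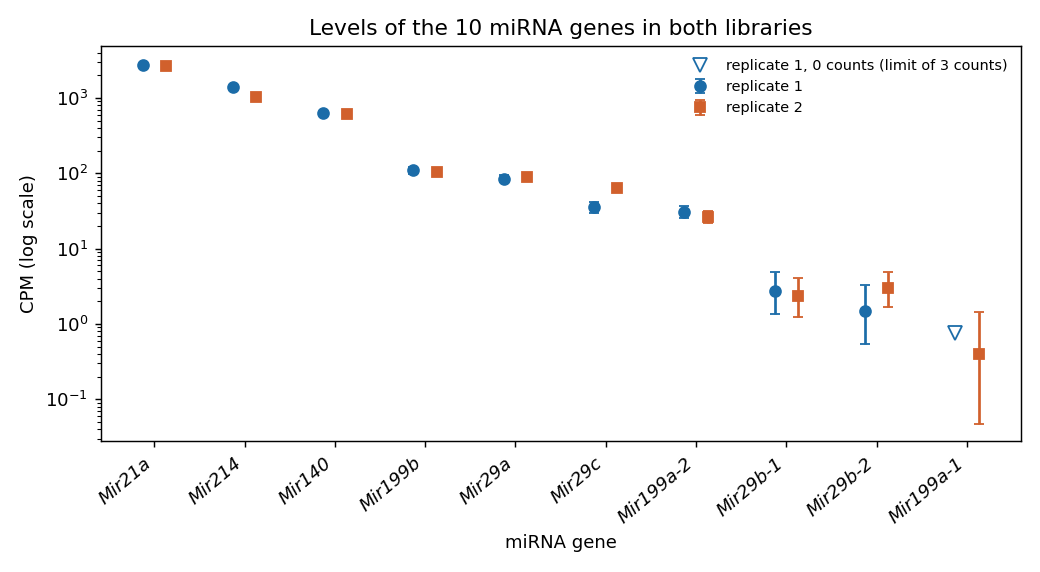
CPM (log scale) of each of the 10 miRNA genes in replicate 1 (circles) and replicate 2 (squares), ordered by mean, with exact 95% counting intervals. The open triangle marks 0 counts, drawn at the limit of 3 counts used here for a count of 0. Levels ran from 2775 and 2670 CPM for Mir21a down to 0 and 2 counts for Mir199a-1, and Mir29c was the gene of more than 10 CPM with the widest gap between the libraries on this scale.

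Mir21a (ENSMUSG00000065455.1) was the most abundant of the set. It lies on chromosome 11 at 86584067 to 86584158, minus strand (mm10), in an exon of Vmp1 on the same strand, in a part annotated as untranslated. It had 11098 counts in replicate 1 and 13517 in replicate 2, which are 2775 and 2670 CPM. The libraries lay close together, at 2722 ± 74 CPM (SD, n = 2), and the gene took rank 53 among the detected miRNA genes. Of all counts of the 10 genes, Mir21a held 55.0% in replicate 1 and 58.2% in replicate 2. Mir21c, which makes an arm with the seed of miR-21a-5p, had 0 counts in both libraries. The limit used here for such a 0 is a fixed 3 counts, or 0.75 and 0.593 CPM in replicates 1 and 2. It is not the bound of the exact interval.

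Mir214 (ENSMUSG00000065516.1) followed, and its libraries stood apart. It lies on chromosome 1 at 162223368 to 162223477, plus strand, in an exon of Dnm3os in all 3 transcripts that span it, and opposite to introns of Dnm3. It had 5525 counts (1382 CPM) in replicate 1 and 5197 counts (1027 CPM) in replicate 2. The mean was 1204 ± 251 CPM, at rank 67 of the detected genes. Mir761, the one other gene of the RefSeq table with the seed of miR-214-3p, had 1 count in replicate 1 and 0 in replicate 2.

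Mir199a-2 (ENSMUSG00000070126.1) lies in the same Dnm3os transcript, at 162217814 to 162217923, with 5444 nt between the hairpins, and was counted far less. It had 122 counts (30.5 CPM) in replicate 1 and 133 counts (26.3 CPM) in replicate 2, a mean of 28.4 ± 3.0 CPM. Within replicate 1, Mir214 had 45.3 times the counts of Mir199a-2 (exact interval 37.8 to 54.6), and within replicate 2 it had 39.1 times (32.9 to 46.8). These intervals overlap, so a difference of this ratio between the libraries was not detectable at this depth. Both arms of Mir199a-2 stand whole in Mir199a-1 or Mir199b, and no arm of Mir214 stands in another gene. The part of reads with several places in this gap was not tested.

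The paralogs at the other dynamin genes had low counts. Mir199b (ENSMUSG00000092807.1) lies on chromosome 2 at 32318460 to 32318569, plus strand, opposite to introns of Dnm1. It had 436 counts (109 CPM) and 524 counts (104 CPM) in replicates 1 and 2, a mean of 106 ± 4 CPM. Its counts were 3.57 times those of Mir199a-2 in replicate 1 (exact interval 2.92 to 4.41) and 3.94 times in replicate 2 (3.25 to 4.80), a pair chosen after the values were seen. Both listed arms of Mir199a-2 stand whole in other miRNA genes, while the 5p stretch of Mir199b stands in none. The part of reads with several places in this ratio was not tested. Mir199a-1 (ENSMUSG00000065547.1) lies on chromosome 9 at 21496495 to 21496564, minus strand, opposite to introns of Dnm2. It had 0 counts in replicate 1 and 2 counts in replicate 2, both under the 3 counts used here as the limit for a count of 0. Mir199a-1 was thus not detectable among the reads that could be placed, and both its listed arms stand whole in another Mir199 gene. The order of the counts, Mir199b before Mir199a-2 before Mir199a-1, was also the order of the bases that lie outside shared stretches in the hairpins printed above. This is a description of 3 genes. These bases include stretches outside the listed arms, and their part in the order of the counts was not tested.

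Mir140 (ENSMUSG00000065439.1) was the third most abundant gene of the set. It lies on chromosome 8 at 107551244 to 107551313, plus strand, within Wwp2, and is exonic in 1 of the 4 Wwp2 transcripts that span it. It had 2501 counts (625 CPM) in replicate 1 and 3070 counts (606 CPM) in replicate 2, a mean of 616 ± 13 CPM at rank 86. The libraries differed by little for this gene. Mir497b, the one other gene of the RefSeq table with the seed of miR-140-3p, had 0 counts in both.

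**Figure D3:**
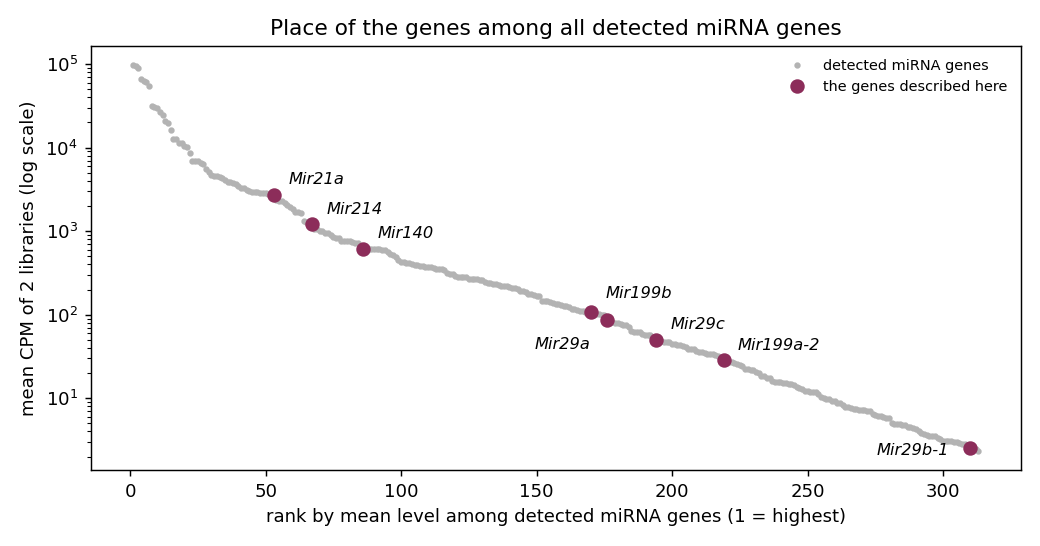
Mean CPM of the 2 libraries (log scale) against rank for the 313 detected miRNA genes (grey), with the 8 detected genes of the set marked. Mir21a, Mir214 and Mir140 stand at ranks 53, 67 and 86, Mir199b, Mir29a, Mir29c and Mir199a-2 between ranks 170 and 219, and Mir29b-1 at rank 310.

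The Mir29 family, the collagen-targeting side of the set, was read at low levels. Its 4 genes form 2 loci on different chromosomes, each with a copy of Mir29b. Summed, they held 500 counts in replicate 1 and 799 in replicate 2, which are 0.0125% (exact interval 0.0114 to 0.0136) and 0.0158% (0.0147 to 0.0169) of the assigned reads. No other gene of the RefSeq table makes an arm with the seed AGCACCA.

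Mir29a (ENSMUSG00000065610.1), on chromosome 6 at 31062660 to 31062747, minus strand, lies in no other annotated gene. It had 340 counts (85.0 CPM) in replicate 1 and 450 counts (88.9 CPM) in replicate 2, a mean of 87.0 ± 2.7 CPM, so the libraries lay close together. Its neighbour Mir29b-1 (ENSMUSG00000065604.2), at 31063023 to 31063093 with 275 nt between the hairpins, had 11 and 12 counts (2.75 and 2.37 CPM).

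On chromosome 1, Mir29c (ENSMUSG00000065548.1, 195037547 to 195037634, plus strand) and Mir29b-2 (ENSMUSG00000065412.3, 195037040 to 195037120) lie in an exon of the non-coding A330023F24Rik. Both stand opposite to an untranslated part of Cd46. Mir29c had 143 counts (35.8 CPM) in replicate 1 and 322 counts (63.6 CPM) in replicate 2, a mean of 49.7 ± 19.7 CPM. Mir29b-2 had 6 counts (1.5 CPM) and 15 counts (2.96 CPM). In both genes the higher library was replicate 2, although the counting intervals of Mir29b-2 overlap, at 0.551 to 3.27 CPM and 1.66 to 4.89 CPM.

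Each Mir29b copy had far fewer counts than its neighbour in both libraries. However, miR-29b-3p stands whole in both copies, while no listed arm of Mir29a or Mir29c stands in another gene. The part of reads with several places in these ratios was not tested. Mir29a had 30.9 times the counts of Mir29b-1 in replicate 1 (exact interval 17.1 to 62.5) and 37.5 times in replicate 2 (21.3 to 73.1). Mir29c had 23.8 times the counts of Mir29b-2 in replicate 1 (10.7 to 66.0) and 21.5 times in replicate 2 (12.8 to 38.8). The ratio of Mir29c to Mir29a, a pair chosen after the values were seen, was 0.421 in replicate 1 (0.343 to 0.513) and 0.716 in replicate 2 (0.618 to 0.827). These last intervals do not overlap. The same comparison of the loci through Mir29b-2 to Mir29b-1 gave 0.545 (0.166 to 1.61) and 1.25 (0.546 to 2.92), whose intervals overlap. The ratios that involve a Mir29b copy rest on 6 to 15 counts of that copy. A shift of the size seen for Mir29c to Mir29a was not detectable in them at these counts. The intervals cover counting error, and how this ratio varies between animals cannot be read from 2 libraries.

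**Figure D4:**
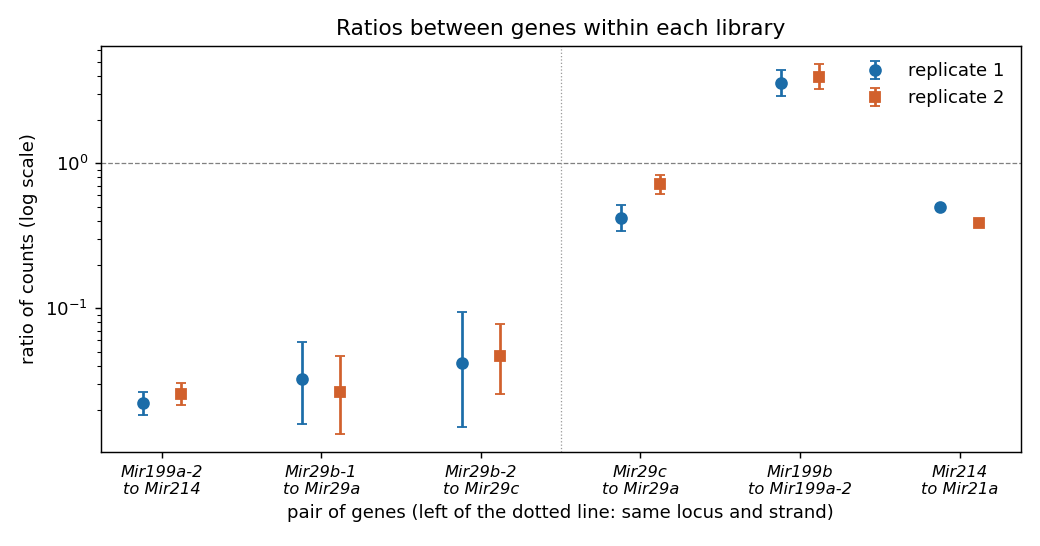
Ratio of counts (log scale) of the first named gene to the second within replicate 1 (circles) and replicate 2 (squares), with exact 95% intervals. Pairs left of the dotted line lie on the same strand of the same locus. Pairs right of it were chosen after the values were seen. The intervals of the 3 same-locus pairs and of Mir199b to Mir199a-2 (3.57 and 3.94) overlap between the libraries, while those of Mir29c to Mir29a (0.421 and 0.716) and of Mir214 to Mir21a (0.498 and 0.384) do not; pairs with few counts have wide intervals.

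In order of mean level, the 2 values of each gene did not overlap those of its neighbour in 8 of the 9 pairs. The genes were sorted by these same values, and the share over all detected genes was not computed. The exception was Mir29b-1 and Mir29b-2. The counting intervals also overlapped for Mir199b and Mir29a in replicate 2 (94.8 to 113 and 80.9 to 97.5 CPM). In replicate 1 they overlapped for Mir29c and Mir199a-2 (30.1 to 42.1 and 25.3 to 36.4 CPM). The intervals of Mir29b-2 and Mir199a-1 overlapped there too (0.551 to 3.27 and 0 to 0.922 CPM). Mir29c and Mir199a-2 were in the same order in both libraries, but their means differed by 21.3 CPM, less than the sum of their SDs of 22.7 CPM. A read covers a mature arm, and the listed arms have 21 to 25 nt, so CPM was not divided by hairpin length. Per 100 nt of hairpin, Mir29a (98.8) came before Mir199b (96.6), and the rest of the order stayed as it was.

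Between the 2 libraries, Mir214 was lower and Mir29c higher in replicate 2, and the other genes tested did not pass. Counts were compared by an exact binomial test (two-sided), scaled by TMM, a normalisation that centres the bulk of the genes. The p-values were adjusted by Benjamini-Hochberg over the 332 genes whose mean count was 10 or more. It called 39.5% of these 332 genes, so differences beyond counting error were common. Of the 10 genes, 9 were tested and 2 were called, which is no larger a share. Mir199a-1 was too low to be tested. The median log2 ratio of the 9 genes was 0.02, the same as that of all 332 genes, at 0.02.

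Mir214 gave a log2 ratio of replicate 2 to replicate 1 of -0.36 (interval -0.41 to -0.30, exact binomial adjusted p = 2.40e-36), with 12.3% of all tested genes called lower. Its neighbour Mir199a-2 gave -0.14 (exact binomial adjusted p = 0.58), and its interval of -0.51 to 0.22 holds both 0 and the value of Mir214. Mir29c had a log2 ratio of 0.90 (interval 0.61 to 1.20, exact binomial adjusted p = 1.27e-09), or 1.87-fold more in replicate 2. At least 1.5-fold with a call was seen for 25 genes, 7.53% of those tested, and Mir29c was the one gene of the set among them. Mir29b-2 gave a larger log2 ratio, 1.05, from 6 and 15 counts, and did not pass (interval -0.39 to 2.71, adjusted p = 0.24). Mir29a gave 0.14 (interval -0.07 to 0.34, adjusted p = 0.33).

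Of the 9 tested genes, Mir21a, Mir140 and Mir199b had the log2 ratios nearest to 0. Mir21a gave a log2 ratio of 0.02 (interval -0.02 to 0.05), Mir140 0.03 (-0.05 to 0.10) and Mir199b 0.00 (-0.19 to 0.18). With plain library totals in place of TMM, Mir21a gave -0.06 and passed as lower (exact binomial adjusted p = 0.00847), and Mir140 gave -0.04 and did not pass, so the sign of these small ratios rests on the scaling. With edgeR's negative binomial exact test, which adds the spread between these libraries, 6 of the 332 genes (1.81%) and none of the 9 were called, and Mir29c had an adjusted p of 0.19. At an unadjusted p under 0.05 it called 1 of the 9, Mir29c, and 23 of the 332. At 1 library against 1, that spread is estimated from the same pair it tests.

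**Figure D5:**
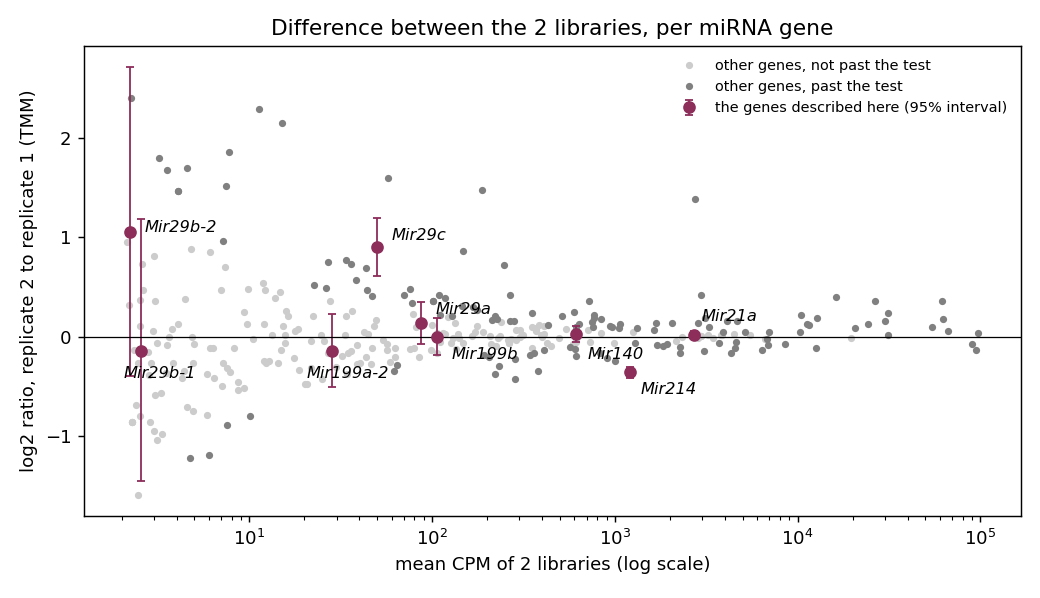
Log2 ratio of replicate 2 to replicate 1 (TMM-scaled) against mean CPM (log scale) for the 332 tested miRNA genes, with those past the exact binomial test in dark grey and the 9 tested genes of the set in colour with 95% intervals. Mir29c (0.90) lies above and Mir214 (-0.36) below the bulk of genes of similar level, and Mir21a and Mir140 lie at 0.02 and 0.03.

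Some markers of other cell types were also called between the libraries by the exact binomial test, which called 27.1% of all 332 tested genes higher and 12.3% lower. Both erythroid markers, Mir451a and Mir144, were called higher in replicate 2, with sums of 1680 and 4088 CPM in replicates 1 and 2. The hepatocyte Mir122 was at 103 and 272 CPM. Of 6 muscle genes tested, 2 were higher and 1 lower, and of the leukocyte markers 2 of 4 were higher, with sums of 423 and 447 CPM. Of 7 epithelial markers, 4 were tested and 1 was lower, with sums of 90.8 and 71.9 CPM. The endothelial Mir126a, at 55784 and 67925 CPM, was higher, and of the smooth muscle pair 1 was higher, with sums of 24571 and 29713 CPM. Of these markers, only Mir451a (adjusted p = 0.000151) and Mir122 (adjusted p = 9.16e-05) passed edgeR's negative binomial exact test. The part of these cell types in the values of Mir29c and Mir214 was not tested. The fibroblast genes of the set (Mir21a, Mir214 and the Mir199 genes) summed to 4296 CPM in replicate 1 and 3827 CPM in replicate 2, and Mir214 was the 1 of 4 tested that was called.

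For context, 43 other miRNA genes studied in fibrosis were listed, among them the Mir30, Mir133, Mir26 and Mir200 genes. Of these, 34 were detected and 0 had no count in both libraries. The highest were Mir378a, hosted by the coactivator gene Ppargc1b, at 89927 ± 6259 CPM, Mir335, hosted by the imprinted Mest, at 31103 ± 2599 CPM and Mir26b, of a family known to target the methyltransferase Ezh2, at 10403 ± 749 CPM. Mir21a stood below all 3. Of the 35 tested, 11 were called higher and 5 lower in replicate 2, none by 1.5-fold. Over all 332 genes tested, 27.1% were called higher, 12.3% lower and 7.53% by at least 1.5-fold in either direction. The median log2 ratio of the list was 0.04 beside 0.02 over all genes tested. The strand opposite to the 10 genes held 1 read in all, at Mir214 in replicate 1, and their sense counts differ from the counts without regard to strand by that read alone.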

How the data were processed

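Each library has a deposited table of raw counts for 2202 miRNA genes, beside 4 summary rows. Per the metadata text deposited beside the tables, the assembly was mm10 and the annotation GENCODE M21. The aligner and the counter were not given in the sources used here. The 3 count columns have no header. The stranded column with the larger total (3999172 against 712997 assigned reads in replicate 1) was taken as sense and used. All 2202 identifiers were found in M21. The summary rows (unmapped, several places, no gene, ambiguous) held 58.7% and 60.7% of reads and were left out of totals. Arms were searched as exact matches in the 2202 M21 hairpins. No genome was used, so matches elsewhere and near matches were not searched. Intervals are exact (Clopper-Pearson, 95%). The binomial test was run on simulated counts that held only counting error and set fold changes. They held no further spread between libraries, so the error rate of the test on this pair was not tested. Alternatives were DESeq2 size factors, plain totals, other count minimums, the unstranded column, all reads as denominator and edgeR's negative binomial test. Named genes are the 10 genes, the 3 highest of the fibrosis list, cell type markers beside a result they touch, and, added after the values were seen, genes with the seed of a listed arm. The genes and lists were chosen with earlier results of these data known. Mir142hg, on the leukocyte list, is not among the counted genes. Software was Python 3.11.15, scipy 1.17.1, R 4.3.3, edgeR 4.0.16 and DESeq2 1.42.0.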

Additional observations from a re-analysis of the deposited data

How the results depend on the processing

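The counts of genes called between the libraries stayed within 1.5 times under DESeq2 size factors, plain totals, both other count minimums and the unstranded column. They ranged from 116 to 141 over all genes and from 2 to 3 among the 10 genes. The negative binomial exact test of edgeR called 6 and 0. With plain totals, the log2 ratios of Mir21a and Mir140 changed sign, to -0.0557 and -0.0445. Over all genes, plain totals gave 62 higher and 79 lower, against 90 and 41 with TMM. The share of the 10 genes in the assigned counts, 0.482%, was 0.588% with the unstranded column and 0.194% with all reads as denominator, and 0.459% to 0.505% with each library alone. Their median of 68.3 CPM was 83.4 and 27.4 under the same settings, and 60.4 to 76.2 with each library alone. The unstranded column and the all-reads setting change the denominators by construction. The same-locus ratios ranged, with each library alone, from 0.0221 to 0.0256 for Mir199a-2 to Mir214, 0.0267 to 0.0324 for Mir29b-1 to Mir29a and 0.0420 to 0.0466 for Mir29b-2 to Mir29c. No paired analysis was possible because the study has 1 group. Low counts limit Mir29b-1, Mir29b-2 and Mir199a-1, each of which has a listed arm that stands whole in another miRNA gene. Reads with several places are not in these counts, and the part of depth in the low counts was not tested.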
